A study of Mus musculus with 12 samples.

Results

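Plasmacytoid dendritic cells of the mouse liver were described before birth, at E16.5, and in pups, at P3 (the third day after birth), from droplet-based single-cell RNA sequencing of whole livers. A barcode, which stands for 1 droplet, was taken as plasmacytoid when it held at least 2 unique molecular identifiers (UMIs, counts of captured RNA molecules) of Siglech and 0 of Cd79a. Siglech encodes a surface lectin of these cells, and Cd79a encodes a chain of the B cell receptor complex. Of 184493 barcodes with 1000 UMIs or more, of which mitochondrial genes took no more than 15%, the gate held 404. Siglech and Cd79a chose the barcodes, so their levels in the gate are not results.

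The livers came from crosses between Jag1Ndr/+ mice, and the labels list Jag1+/+, Jag1Ndr/+ and Jag1Ndr/Ndr animals at each stage. Jag1 encodes a ligand of Notch receptors. Ndr (Nodder) is a missense allele carried in the germline, so all cells of an animal have it and the RNA level of Jag1 does not check the label. Per the labels' protocols, E16.5 tissue but not P3 tissue was treated with TrypLE, dead cells were removed magnetically, and Jag1Ndr/Ndr pups at P3 were picked by jaundice.

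Plasmacytoid dendritic cells arise in hematopoietic tissue, which before birth includes the liver. They carry the endosomal receptors TLR7 and TLR9, which detect RNA and DNA, and can release large amounts of type I interferon when these are engaged. The transcription factor TCF4 (E2-2), which binds E-box sequences, sets and maintains their identity together with SPIB, BCL11A, RUNX2 and IRF8, and ID2 opposes it.

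The promoters of 3 genes that mark the cells are shown here because each holds the E-box CAGGTG, a sequence of the kind TCF4 binds. They are the 250 bases before the RefSeq start on build GRCm38.p6, written 5′ to 3′ on the gene's strand. Capitals mark CAGGTG on either strand (CACCTG is its reverse complement) and, in Bst2, a pair of overlapping matches to GAAA, any 2 bases and GAAA again, the core of the element that interferon-activated factors bind (ISRE).
Siglech, chr7:55767934-55768183, plus strand: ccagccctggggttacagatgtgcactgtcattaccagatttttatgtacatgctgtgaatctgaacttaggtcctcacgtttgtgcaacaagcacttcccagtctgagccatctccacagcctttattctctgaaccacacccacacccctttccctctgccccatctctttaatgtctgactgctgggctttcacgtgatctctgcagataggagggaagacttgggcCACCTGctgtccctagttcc
Ccr9, chr9:123766961-123767210, plus strand: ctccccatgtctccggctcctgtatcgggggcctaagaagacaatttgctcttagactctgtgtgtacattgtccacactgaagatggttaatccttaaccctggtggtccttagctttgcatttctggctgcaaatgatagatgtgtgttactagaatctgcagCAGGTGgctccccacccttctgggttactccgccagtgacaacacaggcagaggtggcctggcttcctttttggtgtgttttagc
Bst2, chr8:71537473-71537722, minus strand: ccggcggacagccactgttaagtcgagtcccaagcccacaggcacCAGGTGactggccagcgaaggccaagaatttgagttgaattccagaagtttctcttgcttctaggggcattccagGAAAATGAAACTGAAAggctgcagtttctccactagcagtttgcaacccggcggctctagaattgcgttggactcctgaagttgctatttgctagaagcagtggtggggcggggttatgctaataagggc

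These are 2 of 6 motifs searched on both strands of 300-base windows, from 250 bases before to 50 after each start. CAGGTG was present in 20.2% of all 32851 promoters and in 7 of the 25 promoters (28%) that matched 19 of the 26 plasmacytoid identity genes. These 7 belong to Siglech, Ccr9, Bst2, Irf8, Klk1, Lifr and Cd300c. The ISRE core was present in 3.44% of all promoters and in 4 of the 25 (16%), which belong to Bst2, Cd300c and Rnase6. Of these 4, 2 are overlapping windows of Rnase6 that hold the same match, so 3 of 19 genes have one. Of the other motifs, the E-box CAGCTG was present in 6 of the 25 (24%, 16.3% of all, in 4 of 19 genes, since overlapping windows of Ly6c2 and of Rnase6 each repeat 1 match), any E-box (CANNTG) in 20 (80%, 72.3% of all, in 17 of 19 genes), GGAA with any 2 bases and GAAA, a joint site of ETS and IRF factors, in 1 (4%, 2.72% of all), and TGGGAA, of the kind RBPJ binds, in 10 (40%, 25.6% of all, in 8 of 19 genes). A match describes the sequence and does not show binding.

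The libraries do not all match their labels. The labels name 12 samples in 6 groups of 2, but 7 pairs of deposited matrices shared 53.4% to 100% of the smaller one's barcodes, against 0.547% to 1.72% for the other 59 pairs. At E16.5, 5 distinct libraries remained: Jag1+/+ replicate 1, a library deposited identically as Jag1+/+ replicate 2 and Jag1Ndr/+ replicate 2 (the shared library), the first Jag1Ndr/+ library, and both Jag1Ndr/Ndr libraries. At P3, 4 remained: A and B, labelled Jag1+/+ replicates 1 and 2, whose barcodes recur under other genotype labels, C (Jag1Ndr/Ndr replicate 1 without the barcodes of A) and D (Jag1Ndr/+ replicate 1). Values below follow this order. The genotype was compared at E16.5 only. The labels do not say that the libraries of a group came from separate litters, so p-values measure the spread between these libraries. The gated barcodes had median UMI counts of 9967 to 12348 in the E16.5 libraries and 3786 to 7712 in those of P3, and their summed profiles held 122911 to 946789 UMIs per library.

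Most gated barcodes held UMIs of the other genes that define the cell type. Bst2 (a surface protein that these cells carry constitutively), Tcf4 and Irf8 all had at least 1 UMI in 368 of 404 barcodes (91.1%), exactly 2 of the 3 did in 28, and at most 1 did in 8. Of 153279 passing barcodes with 0 UMIs of Siglech and of Cd79a, 1.98% held all 3, with 11.9% for Bst2, 9.27% for Tcf4 and 8.15% for Irf8, at a median of 6296 UMIs. Gated barcodes with 3 or more Siglech UMIs had a median of 8360 UMIs. Bst2 reached 1239, 787, 1008, 1967 and 1175 CPM at E16.5 (counts per 1000000, the gene's UMIs scaled to a total of 1000000 UMIs in the summed gated barcodes of a library), and 868, 624, 1198 and 676 CPM at P3. Tcf4 was at 1152, 991, 701, 1349 and 1095 CPM at E16.5 and 861, 896, 838 and 1310 CPM at P3. Both genes were present in every library, and the stages overlapped for both. The genes that define other lineages were not at 0: 343 barcodes (84.9%) had a UMI of at least 3 of 14 neutrophil genes, 272 of at least 3 of 12 hepatocyte genes, and 243 of at least 3 of 12 erythroid genes. At least 3 of 12 macrophage genes were found in 40 barcodes, of 14 T and NK genes in 13, of 12 endothelial genes in 29, of 10 megakaryocyte genes in 4, of 12 mesenchymal genes in 1, and of 10 basophil and mast cell genes in 0. For the lineages compared below, at least 3 of 19 conventional dendritic cell genes were found in 354 barcodes (87.6%), of 16 B lineage genes in 263 (65.1%) and of 12 monocyte genes in 141 (34.9%). Of the conventional genes, Cst3, a cystatin made by many cells, was at a mean of 1347 ± 250 CPM in the gate (SD, n = 9 libraries) and Flt3 at 115 ± 24.9, while Clec9a and Xcr1, which define a conventional subset, were at 3.9 ± 3.71 and 0.359 ± 1.08 CPM.

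The edge of the gate is described here without a test. The 61 barcodes with exactly 2 Siglech UMIs had 351 CPM of Bst2, 514 of Tcf4 and 1007 of Irf8, and the 343 with 3 or more had 1195, 1103 and 1767 CPM. Just outside, the 203 barcodes with 1 Siglech UMI had 207, 200 and 547 CPM, and 33.5% of them carried all 3 genes. A further 79 barcodes had at least 2 Siglech UMIs together with Cd79a. Their Bst2, Tcf4 and Irf8 levels were 604, 632 and 1245 CPM, and 60.8% of them held a UMI of a surrogate light chain gene, which marks pro-B and pre-B cells, against 21.3% and 15.5% in the 2 classes inside the gate and 15.1% of barcodes with neither Siglech nor Cd79a. Barcodes with at least 3 erythroid genes and 0 UMIs of Cd79a and Ptprc (leukocyte antigen CD45) numbered 112402. Of these, 24 (0.0214%) had 2 or more Siglech UMIs, and median depths were 2916 to 9012 UMIs. The 24 meet the gate and are among its 404 barcodes, so they do not measure Siglech in cells that lack it. At E16.5, all 212 gated barcodes had at least 3 erythroid genes.

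Gated barcodes were rare at both stages. They made up 0.18%, 0.242%, 0.0792%, 0.142% and 0.299% of passing barcodes in the E16.5 libraries, and 0.274%, 0.359%, 0.266% and 0.176% in P3 libraries A to D. The exact 95% binomial intervals (Clopper-Pearson), which cover counting error only, ran from 0.0502% to 0.119% in the lowest library and from 0.276% to 0.459% in the highest. The ranges of the stages overlapped. The mean was 0.188% ± 0.0856 (SD, n = 5) at E16.5 and 0.269% ± 0.0747 (SD, n = 4) at P3, a difference of 0.0805 percentage points that did not exceed the spread between libraries (two-sided exact permutation test, p = 0.206, smallest possible 0.0159). With barcodes thinned to 2000 UMIs, the shares were 0.0734% ± 0.0437 and 0.173% ± 0.0429 (exact permutation p = 0.0317). Thinning left out 1704, 2001 and 3784 passing barcodes under 2000 UMIs in libraries A, B and D and 0 in the other libraries, so the denominator changed at P3 only. The number of gated barcodes changed too, since the gate was applied to the thinned counts. It held 193 of them in place of 404, and 82 in place of 212 at E16.5. With at least 2000 UMIs per barcode and no thinning, the shares were 0.188% ± 0.0856 and 0.291% ± 0.0869 (exact permutation p = 0.127). Per barcode with a Ptprc UMI (Ptprc encodes the leukocyte antigen CD45), the order was the opposite, at 1.06% ± 0.589 and 0.593% ± 0.085 (exact permutation p = 0.111).

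**Figure D1:**
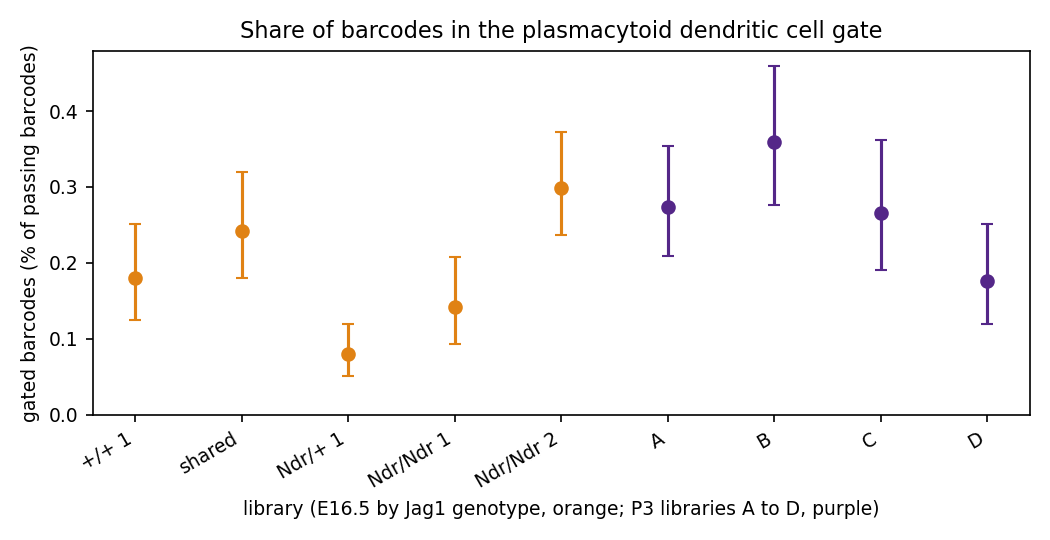
Gated barcodes as a percentage of passing barcodes (vertical axis, starting at 0) in 5 libraries at E16.5 and 4 at P3; points are libraries and bars are exact 95% binomial intervals. At E16.5 the points span 0.0792% to 0.299%, and those of P3 span 0.176% to 0.359%, so the stages overlap.

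To place the cells among their relatives, their summed profiles were compared with those of 3 other gates in the same 9 libraries. These were a conventional dendritic cell gate (418 barcodes, with a Clec9a, Xcr1, Cd209a or Clec10a signal and H2-Ab1), a monocyte gate (1874 barcodes, Ly6c2 with F13a1, Ccr2 or Ms4a4c, and no H2-Ab1) and a gate of pro-B and pre-B cells (20842 barcodes, Cd79a with surrogate light chain genes). All 3 gates required 0 UMIs of Siglech. The dendritic cell and monocyte gates also required 0 of Cd79a and of C1qa, a macrophage gene. The monocyte gate further required 0 of Ngp, a neutrophil granule gene, which the plasmacytoid gate did not. Genes that defined the gates compared were left out of the tests. The test was edgeR's quasi-likelihood test with the library as a block and Benjamini-Hochberg adjustment at 0.05. It called 1700 of 4696 genes (36.2%, with 16.8% higher and 19.4% lower) against conventional dendritic cells. Against monocytes it called 2939 of 6931 (42.4%, with 20.8% higher and 21.6% lower). Against pro-B and pre-B cells it called 3587 of 10182 (35.2%, with 16.9% higher and 18.3% lower). Each count per gene list against these gates stands beside these shares of all genes. A conventional gate on Clec9a and Xcr1 only gave 1762 calls of 4680 genes, 1641 of them among the 1700. With Cd209a and Clec10a only, fewer than 3 libraries had enough barcodes. The conventional gate therefore stands mainly for the Clec9a and Xcr1 subset. With barcodes thinned to 2000 UMIs, the 3 comparisons called 334 of 922, 521 of 1317 and 1270 of 6067 genes tested. The gates were applied again to the thinned counts, so these tests used fewer barcodes. The plasmacytoid gate then held 193 in place of 404, before libraries with under 10 were left out. Against conventional dendritic cells, 8 sums of a gate in a library were left, and a stage had no library with enough barcodes. Markers of other cell types differed between the gates too. Of the hepatocyte markers, 5 of 10 tested were lower and 0 higher than in conventional dendritic cells (median −2.33), 0 of 12 lower and 0 higher than in monocytes, and 7 of 12 lower and 0 higher than in pro-B and pre-B cells. Of the erythroid markers, 2 of 11 were lower than in conventional dendritic cells, 8 of 12 higher than in monocytes and 6 of 12 lower than in pro-B and pre-B cells, with 0 in the opposite direction. Of the neutrophil markers, 0 of 9 were called against conventional dendritic cells, 6 of 11 were lower and 1 higher than in monocytes, and 2 of 14 were lower and 0 higher than in pro-B and pre-B cells. Their part in the calls was not tested.

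The identity genes were higher in all 3 comparisons, which checks the label and is not independent evidence, since they were listed for this cell type. Higher in the plasmacytoid gate were 18 of 22 tested identity genes against conventional dendritic cells (median log2 fold change 3.83, 0.00 over all genes, 16.8% of all genes called higher), 18 of 20 against monocytes (4.82, 0.00, 20.8%) and 21 of 22 against pro-B and pre-B cells (4.41, −0.07, 16.9%). Against conventional dendritic cells the log2 ratio of mean CPM lay 0.19 (median) above the fitted fold change, as it did between the stages, and fold changes given here are the fitted ones.

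Cox6a2, a subunit of cytochrome c oxidase, was at 431, 266, 281, 418 and 428 CPM at E16.5 and 441, 313, 905 and 1164 CPM at P3 in the plasmacytoid gate. Its mean was 516 ± 308 CPM (SD, n = 9 libraries here and for each mean over both stages below), against 0.203 ± 0.608 in conventional dendritic cells, 0.339 ± 0.444 in monocytes and 5.21 ± 1.62 in pro-B and pre-B cells, and each plasmacytoid library lay above every library of the other gates. Ly6d, a surface protein that also marks B-committed lymphoid progenitors, was at 1329 ± 440 CPM, against 1.33 ± 1.72, 0.918 ± 0.842 and 144 ± 150 in the same order. Ccr9, a chemokine receptor for homing to gut and thymus, was at 201 ± 79.6 CPM, against 10.2 ± 8.2, 0.592 ± 0.424 and 0.646 ± 0.48. Bst2 was higher than in all 3, by log2 fold changes of 2.73 ± 0.10, 3.61 ± 0.18 and 4.98 ± 0.14 (SE, largest adjusted p = 1.11e-07). Some identity genes were shared. The difference for Irf8 from conventional dendritic cells, here mainly the Clec9a and Xcr1 subset, was 0.10 ± 0.07, adjusted p = 0.305. That for Rnase6 was 0.06 ± 0.10, adjusted p = 0.714. For Plac8 the difference from monocytes was 0.09 ± 0.07, adjusted p = 0.305. Ly6a, the surface antigen Sca-1, was lower than in conventional dendritic cells (−2.53 ± 0.50, adjusted p = 0.00353).

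**Figure D2:**
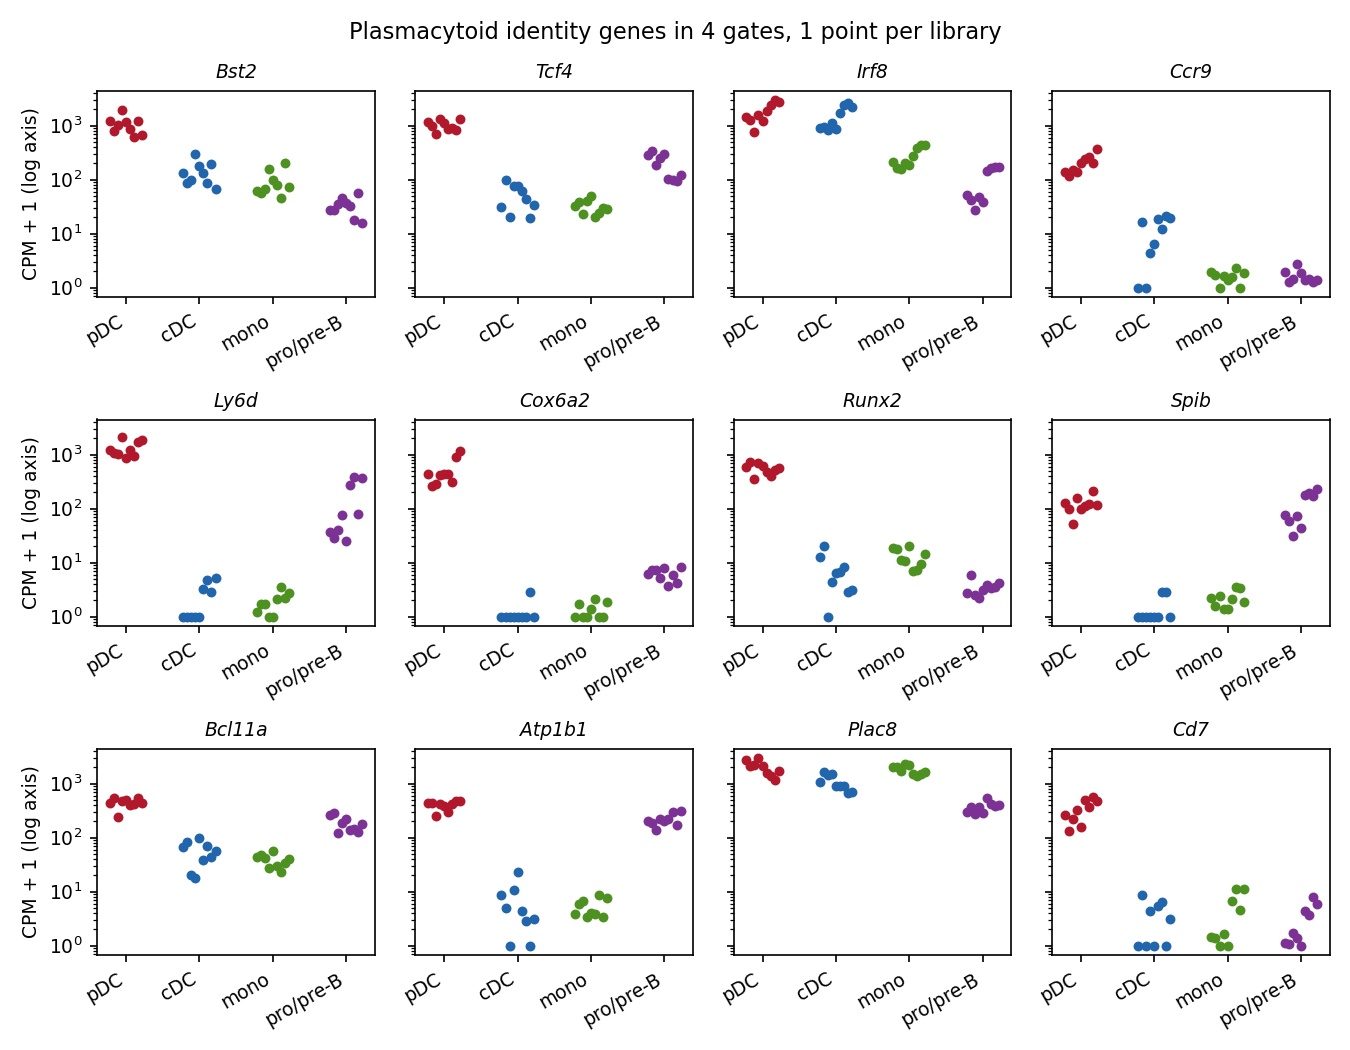
Levels of 12 plasmacytoid identity genes (CPM + 1 on a log axis) in 4 gates, with 1 point per library (5 at E16.5, 4 at P3). Cox6a2 has a mean of 516 ± 308 CPM (SD over libraries) in the plasmacytoid gate and is under 10 CPM in the others. The points of Irf8 in plasmacytoid and conventional dendritic cells overlap.

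The transcription factors divided the gates differently. Against conventional dendritic cells, 9 of 15 tested plasmacytoid factors were higher and 4 lower, against monocytes 11 of 14 higher and 2 lower, and against pro-B and pre-B cells 9 of 16 higher and 2 lower. Tcf4 was at 1021 ± 221 CPM, against 50.5 ± 28.1, 30.8 ± 9.5 and 198 ± 97.3, with log2 fold changes of 4.18 ± 0.23, 5.02 ± 0.09 and 2.39 ± 0.23 (largest adjusted p = 4e-05). Runx2, which acts in the exit of these cells from bone marrow, was at 551 ± 125 CPM, against 6.29 ± 6.02, 11.9 ± 4.92 and 2.47 ± 1.08. Spib, an ETS family factor shared with B cells, was at 121 ± 43.9 CPM against 0.408 ± 0.809 in conventional dendritic cells, but its difference from pro-B and pre-B cells was 0.20 ± 0.29, adjusted p = 0.65. Bcl11a, which acts in lymphoid development too, was at 442 ± 90 CPM against 53.7 ± 27.4, 37.4 ± 10.7 and 185 ± 59.5. Zeb2 was higher than in conventional dendritic cells (2.44 ± 0.24, adjusted p = 5.75e-06) and lower than in monocytes (−0.19 ± 0.07, adjusted p = 0.0419). Tcf3, which encodes the E proteins E12 and E47 of B cell commitment, was higher than in conventional dendritic cells (1.14 ± 0.22, adjusted p = 0.000168) and lower than in pro-B and pre-B cells (−1.65 ± 0.10, adjusted p = 6.65e-15).

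Factors opposed to the fate were mostly lower, 4 of 5 tested against conventional dendritic cells and 5 of 6 against monocytes. Id2, the inhibitor of E proteins, was at 144 ± 82.6 CPM, against 1666 ± 228 in conventional dendritic cells (−3.85 ± 0.33, adjusted p = 1.93e-05) and 415 ± 113 in monocytes (−1.57 ± 0.29, adjusted p = 0.00226). Batf3, a factor of cross-presenting dendritic cells, was lower than in conventional dendritic cells (−4.73 ± 0.23, adjusted p = 5.04e-15). Against pro-B and pre-B cells, where Id2 was at 55.3 ± 28.7 CPM, 6 of 8 opposed factors were higher in the plasmacytoid gate.

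Among nucleic acid sensors, Tlr7 was the endosomal receptor that could be measured. It was at 24.4, 22, 22.6, 24.7 and 25.8 CPM at E16.5 and 17.1, 16.8, 25.1 and 24.4 CPM at P3, with overlapping stages. In the other gates it was at 0.124 ± 0.373, 5.58 ± 2.5 and 1.6 ± 1.07 CPM, and the log2 fold change was 1.96 ± 0.24, adjusted p = 6.13e-08, against monocytes, and 3.93 ± 0.33, adjusted p = 3.01e-11, against pro-B and pre-B cells. Tlr9 had 4 UMIs in all 404 barcodes, so its level was not measurable at this depth. Tlr3, a receptor for double-stranded RNA in cross-presenting dendritic cells, had 1 UMI in the gate and stood at 126 ± 60.5 CPM in conventional dendritic cells. Ctsl, a cathepsin that cleaves endosomal receptors, was at 620 ± 172 CPM against 50.7 ± 50, 74.1 ± 6.19 and 42.9 ± 10.3. Pacsin1, a membrane-shaping adaptor, was at 86.2 ± 37.2 CPM in the gate. Slc15a4, an endolysosomal transporter that TLR7 and TLR9 signalling needs, was higher in all 3 comparisons (0.95 ± 0.21, 1.00 ± 0.13 and 1.51 ± 0.19, largest adjusted p = 0.000879). Irf5, a factor of TLR signalling, was lower than in conventional dendritic cells (−2.27 ± 0.16) and monocytes (−1.27 ± 0.13) and higher than in pro-B and pre-B cells (1.19 ± 0.18, largest adjusted p of the 3 = 2.02e-06). Over the list, 6 of 18 sensing genes were higher and 5 lower than in conventional dendritic cells, 10 of 20 higher and 3 lower than in monocytes, and 16 of 23 higher and 2 lower than in pro-B and pre-B cells. Of all genes tested, 16.8%, 20.8% and 16.9% were higher and 19.4%, 21.6% and 18.3% lower in that order.

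Interferon transcripts were not detectable at this depth, apart from 1 UMI. Of 19 genes for type I and type III interferons, 18 had 0 UMIs in the gate and Ifnk had 1. For a gene at 0, 3 UMIs would correspond to 1.15 CPM over the summed E16.5 barcodes and to 2.02 CPM over those of P3. Of the interferon-stimulated genes, 0 of 9 tested were higher and 3 lower than in conventional dendritic cells, among the latter Ifitm3 (−2.69 ± 0.37, adjusted p = 0.000461), which restricts virus entry. Against monocytes, 6 of 9 were higher and 1 lower. Rsad2, the antiviral protein viperin, stood at 127, 73.9, 74.3, 198 and 30.1 CPM at E16.5 and 51.4, 78.2, 134 and 40.7 CPM at P3, with overlapping stages, and was higher than in monocytes (0.79 ± 0.23, adjusted p = 0.0188). At E16.5, globin genes took 13.1% to 22.1% of UMIs in the plasmacytoid gate and 8.71% to 16.2% in the monocyte gate. The part of erythroid RNA in the Rsad2 difference was not tested. The secretory pathway was higher in 23 of 28 genes against pro-B and pre-B cells (2 lower), in 7 of 26 against conventional dendritic cells (6 lower) and in 4 of 26 against monocytes (11 lower). Of all genes tested, 16.9%, 16.8% and 20.8% were higher and 18.3%, 19.4% and 21.6% lower in that order. Xbp1, a factor that drives the secretory pathway, was at 122 ± 42.3 CPM against 41.7 ± 10.8 in pro-B and pre-B cells (1.44 ± 0.14, adjusted p = 3.38e-08). The monocyte gate also held promyelocyte genes, with Elane at 1737 ± 479 CPM. Thinning to 2000 UMIs turned the direction against monocytes for 7 secretory genes, among them Hspa5 (0.77) and Calr (0.53).

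Antigen presentation separated the gate from conventional dendritic cells, but the gates set part of this, since H2-Ab1 was required of conventional dendritic cells and excluded from monocytes. All 7 tested class II and costimulation genes were lower than in conventional dendritic cells. Cd74, the invariant chain, was at 409 ± 429 CPM in the gate against 9202 ± 6051 CPM. Of the lectins, inhibitory receptors and adaptors of the cell type, 5 of 8 tested were higher and 1 lower against conventional dendritic cells (median 1.14), 6 of 11 higher and 3 lower against monocytes (median 0.33), and 11 of 12 higher and 0 lower against pro-B and pre-B cells (median 3.30). Tyrobp (DAP12), the adaptor through which Siglec-H signals, was at 2106 ± 915 CPM against 861 ± 355, 1712 ± 903 and 211 ± 164. Lair1, an inhibitory collagen receptor, was at 159 ± 42.8 CPM against 11.2 ± 7.22, 6.45 ± 3.39 and 2.87 ± 1.97.

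Some lymphoid genes were present and others nearly absent. Il7r, the interleukin 7 receptor chain, was at 240 ± 82.3 CPM in the gate and at 261 ± 57.7 in pro-B and pre-B cells (−0.27 ± 0.09, adjusted p = 0.0245), but at 2.03 ± 2.3 and 2.34 ± 1.14 in conventional dendritic cells and monocytes. Flt3, the receptor for a growth factor of dendritic cells, was at 115 ± 24.9 CPM, against 95.5 ± 32.1 in conventional dendritic cells (0.02 ± 0.14, adjusted p = 0.94) and 3.22 ± 1.19 in pro-B and pre-B cells (5.02 ± 0.15, adjusted p = 6.28e-23). Ighm, the immunoglobulin mu heavy chain, was at 715, 487, 485, 728 and 478 CPM at E16.5 and 634, 788, 1194 and 1091 CPM at P3. That was above conventional dendritic cells (129 ± 47.2 CPM) and below pro-B and pre-B cells (1579 ± 758 CPM, −1.13 ± 0.13, adjusted p = 7.13e-05). Ebf1, a B lineage factor, was at 2.22, 20, 42, 2.75 and 38.7 CPM at E16.5 and 1.71, 3.72, 20.9 and 0 CPM at P3 against a mean of 1614 ± 774 CPM in pro-B and pre-B cells, and Rag1, of antigen receptor recombination, had 6 UMIs in all. Of 11 B lineage genes tested against pro-B and pre-B cells, 10 were lower and 0 higher, in a comparison in which Cd79a defined the other gate. Of the 5 that could be tested against the other gates, 4 were higher and 1 lower than in conventional dendritic cells (median 2.31), and 5 higher and 0 lower than in monocytes (median 4.47). Free RNA was not removed from these counts, and its part in the immunoglobulin levels was not tested.

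The stages were then compared over the 5 and 4 libraries of the gate. The quasi-likelihood test called 1410 of 5569 genes (25.3%), 675 higher at P3 (12.1%) and 735 lower (13.2%). Each count per gene list between the stages below stands beside these shares of all genes. Stage went together with TrypLE digestion, with the version of the counting software and its gene list (31053 genes at E16.5, 22597 at P3), and with depth, and these cannot be told apart from age. Of 7 tested genes listed for RNA quality and handling, 4 were lower (Egr1, Fos, mt-Atp6 and mt-Co1) and 0 higher (median −0.75). Summed neutrophil markers also moved with stage in the gate, from 1197 to 6367 CPM at E16.5 up to 14823 to 40846 CPM at P3, as did erythroid markers, from 2477 to 4529 CPM down to 407 to 1261 CPM. Monocyte markers moved from 404 to 810 CPM up to 1513 to 2816 CPM, with 4 of 6 tested higher and 0 lower. Ly6c2 is in this list and in the identity list. Hepatocyte markers were at 1021 to 1845 CPM at E16.5 and at 629, 324, 285 and 1879 CPM in libraries A to D, with 2 of 9 tested lower and 0 higher, and barcodes with at least 3 of them numbered 209 of 212 at E16.5 and 63 of 192 at P3. The part of these markers in the calls was not tested. With barcodes thinned to 2000 UMIs, 141 of 605 genes tested were called. The gate was applied again to the thinned counts, which left 193 barcodes in it.

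Irf7, Irf8 and Spi1 were higher at P3. Of the plasmacytoid transcription factors, 3 of 14 tested were higher and 2 lower (median −0.21), and of the interferon receptor and signalling genes 1 of 10 was higher and 1 lower. Irf7, which amplifies interferon production, was at 20, 7.99, 22.6, 41.2 and 17.2 CPM at E16.5 and 37.7, 110, 172 and 146 CPM at P3. Library A fell within the E16.5 range, and the log2 fold change was 2.17 ± 0.49 (SE, edgeR adjusted p = 0.00791). Irf8 rose from 1467, 1286, 769, 1555 and 1207 CPM to 1859, 2430, 2987 and 2783 CPM without overlap (0.81 ± 0.16, adjusted p = 0.000628), and also rose in mean in the 3 other gates. Spi1, the myeloid factor PU.1, rose from 78.3 ± 14.5 to 182 ± 38.4 CPM (1.04 ± 0.20, adjusted p = 0.000387), also without overlap. Tcf4, Spib and Bcl11a did not pass the test (adjusted p = 0.163, 0.607 and 0.589). Of the interferon-stimulated genes, 4 of 10 tested were higher and 0 lower (median 0.94, 0.01 over all genes). Isg15, an antiviral ubiquitin-like protein, was at 6.66, 9.99, 42, 54.9 and 5.37 CPM at E16.5 and 36, 63.3, 239 and 32.6 CPM at P3, with overlap, and did not pass (1.98 ± 0.94, adjusted p = 0.177). Socs3, a feedback inhibitor of cytokine signalling, was lower (−1.97 ± 0.42, adjusted p = 0.00103).

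Homing and adhesion genes changed in both directions, with 7 of 16 tested higher and 3 lower. Cxcr3, the receptor for interferon-induced chemokines, rose from 11.1, 9.99, 12.9, 13.7 and 20.4 CPM to 54.9, 80.1, 83.8 and 48.8 CPM (2.04 ± 0.30, adjusted p = 1.47e-05). Its levels did not overlap between the stages. Ccr9 rose from 148 ± 31.6 to 267 ± 70.6 CPM (0.60 ± 0.19, adjusted p = 0.0205), a call lost without the shared library (0.50, adjusted p = 0.0632) or without library D (0.50, adjusted p = 0.0648). Itga4, an integrin chain that binds VCAM1, fell from 293 ± 49.1 to 170 ± 19.6 CPM (−0.96 ± 0.17, adjusted p = 0.000162). Cxcr4, the receptor for the retention chemokine CXCL12, fell from 148 ± 47.3 to 57.4 ± 43.8 CPM (−1.40 ± 0.44, adjusted p = 0.0449). Its call was lost without any 1 of 7 libraries (adjusted p from 0.0641 to 0.0991), which were all but Jag1Ndr/+ replicate 1 at E16.5 and library A.

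Among the identity genes, 6 of 22 tested were higher at P3 and 3 lower. Cd7, an immunoglobulin family surface protein, rose from 266, 134, 216, 321 and 157 CPM to 497, 363, 574 and 480 CPM (0.94 ± 0.23, adjusted p = 0.00551), without overlap. Plac8 fell from 2418 ± 403 to 1473 ± 232 CPM (−0.91 ± 0.15, adjusted p = 6.86e-05). Ly6c2, an antigen shared with monocytes, was at 169, 110, 19.4, 247 and 116 CPM at E16.5 and 424, 507, 750 and 676 CPM at P3 (1.95 ± 0.48, adjusted p = 0.0232). It did not pass without the shared library, Jag1Ndr/Ndr replicate 2 at E16.5, library C or library D (adjusted p = 0.0599, 0.0656, 0.0625 and 0.0503). The log2 fold change of Bst2 was −0.74 ± 0.27, adjusted p = 0.0636, and that of Runx2, called lower, was −0.48 ± 0.17, adjusted p = 0.0381. The Runx2 call was lost without any 1 library other than Jag1Ndr/+ replicate 1 at E16.5 (adjusted p from 0.0507 to 0.134).

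Lysosomal genes were higher in 9 of 18 tested and lower in 1 (median 0.56). Psap, the saposin precursor, rose from 1072 ± 333 to 2341 ± 537 CPM (0.95 ± 0.20, adjusted p = 0.00146), and Grn (progranulin) from 262 ± 45 to 560 ± 76.7 CPM (0.91 ± 0.16, adjusted p = 0.000146). Ctss, a cathepsin that trims the invariant chain, rose from 160 ± 44.3 to 373 ± 58.3 CPM (1.00 ± 0.19, adjusted p = 0.000271). These 3 genes did not overlap between the stages. Of the sensing genes, 5 of 18 were higher (Irf7, Unc93b1, Ctsb, Ctss and Cnpy3) and 0 lower. Unc93b1, which escorts TLRs to the endosome, lost its call (0.69 ± 0.19, adjusted p = 0.00811) without library A (0.51, adjusted p = 0.0667). Of the secretory genes, the chaperone Hspa5 (0.69 ± 0.15, adjusted p = 0.00113) was among 4 higher, with 3 lower of 27. Mzb1, whose fall cannot be told apart from the change of gene list, is 1 of those lower. Class II genes were higher in 3 of 6 tested. Cd74 was at 113, 232, 136, 173 and 136 CPM at E16.5 and 197, 425, 1299 and 969 CPM at P3 (1.95 ± 0.54, adjusted p = 0.0354), with library A inside the E16.5 range. Leaving out any 1 of 7 libraries, all but A and B, ended this call (adjusted p from 0.0554 to 0.083). The adaptor Tyrobp (0.84 ± 0.16, adjusted p = 0.000435) and the inhibitory receptor Pirb (1.38 ± 0.29, adjusted p = 0.00103) were the receptor genes called higher.

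Ccl4, a chemokine released on activation, fell from 1070, 951, 1186, 786 and 820 CPM to 84, 80.1, 163 and 89.5 CPM (−3.43 ± 0.23, adjusted p = 1.01e-10). Zfp36, which destabilises cytokine transcripts and is induced quickly by stress, fell from 314 ± 68.7 to 33.2 ± 19 CPM (−3.35 ± 0.27, adjusted p = 1.38e-08), and the early response gene Fos fell from 615 ± 125 to 253 ± 114 CPM (−1.57 ± 0.24, adjusted p = 0.000139). Ccl4 and Zfp36 fell in mean in every gate, Ccl4 from 391 ± 132 to 30.9 ± 13.4 CPM in conventional dendritic cells and Zfp36 from 371 ± 81.2 to 43.2 ± 17.9 CPM in monocytes. The part of the digestion, which differed by stage, cannot be told apart. Cebpb, a factor opposed to the fate, was lower as well (−1.72 ± 0.43, adjusted p = 0.0131). Atp6v0c, with the largest rise (from 1.46 ± 1.69 to 476 ± 96.5 CPM), and Mzb1, with the largest fall (from 209 ± 36.6 to 3.82 ± 3.34 CPM), cannot be told apart from the change of gene list. In pro-B and pre-B cells Atp6v0c went from 1.27 ± 0.416 to 312 ± 16.8 CPM and Mzb1 from 798 ± 187 to 2.01 ± 1.34 CPM. Ngp and Lcn2, neutrophil granule genes, were also among the 10 largest rises (4.58 ± 0.97 and 3.87 ± 1.00), and Kel and Slc25a37, genes of red cells, among the 10 largest falls (−3.51 ± 0.50 and −3.29 ± 0.29), beside the shifts of neutrophil and erythroid markers given above.

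**Figure D3:**
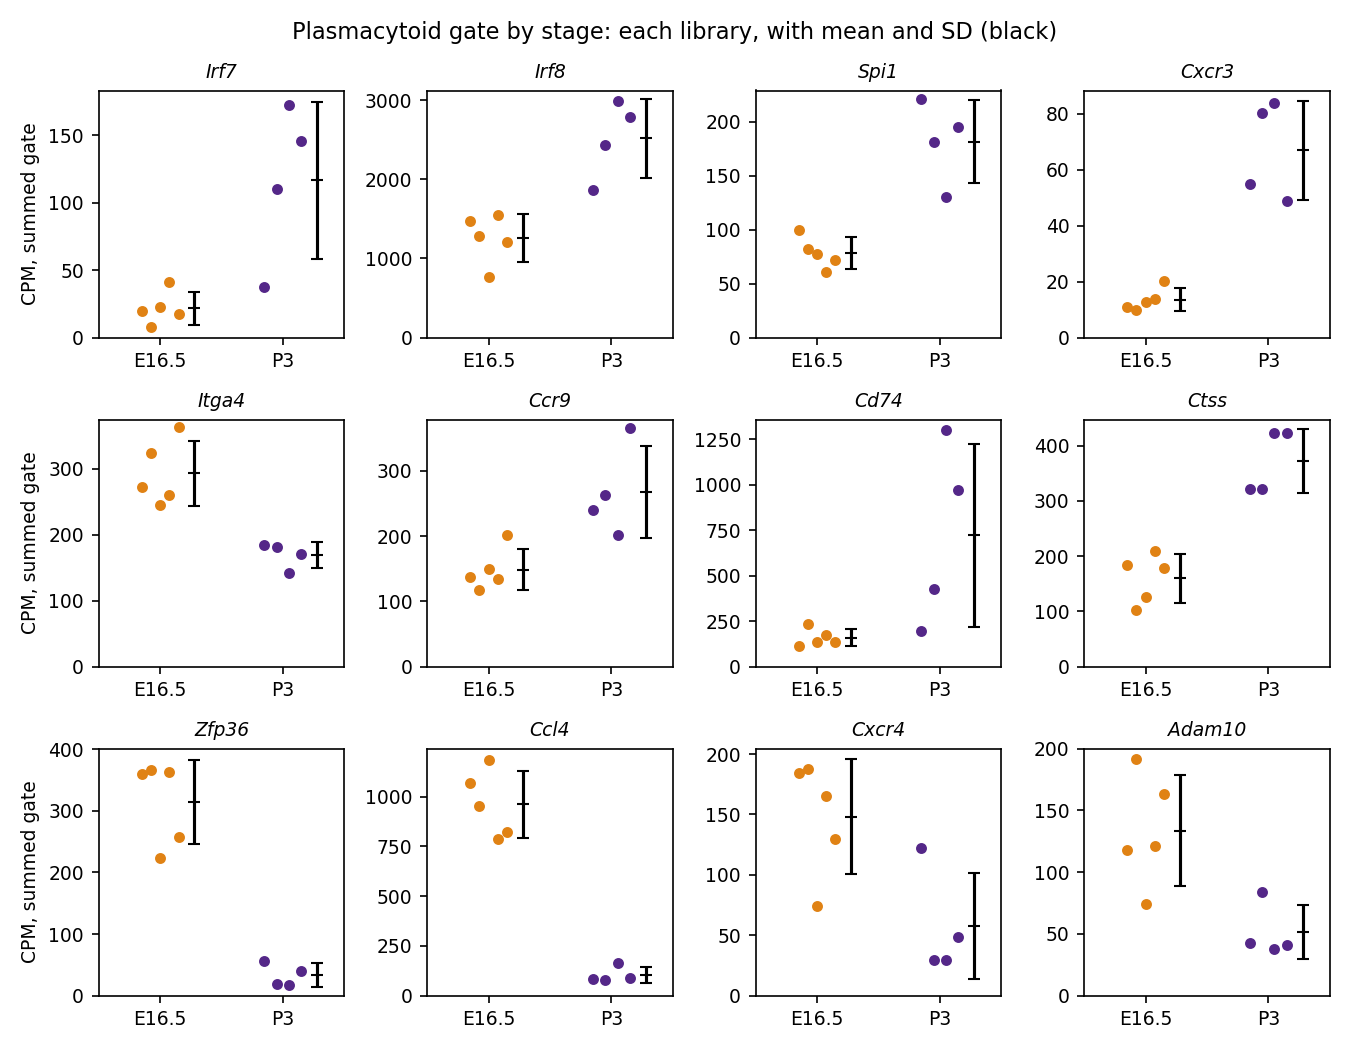
Levels of 12 genes in the gate (CPM, vertical axis) in each of 5 libraries at E16.5 and 4 at P3, with the mean and SD of each stage. Irf8 and Cxcr3 are higher in every P3 library than in every E16.5 library, Ccl4 is lower in every P3 library, and Irf7 and Cd74 overlap between the stages.

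Notch genes were examined because the allele lies in a Notch ligand. Notch1 was at 93.2, 122, 51.7, 121 and 120 CPM at E16.5 and 85.7, 83.8, 83.8 and 171 CPM at P3, with overlapping stages. Its mean, 104 ± 34.2 CPM, compared with 12.4 ± 3.96, 38.3 ± 6.82 and 29.5 ± 6.72 CPM in the other gates, with log2 fold changes of 2.85 ± 0.21, 1.37 ± 0.12 and 1.67 ± 0.11 (largest adjusted p = 4.41e-11). Notch2 was lower than in conventional dendritic cells (−1.33 ± 0.16, adjusted p = 1.76e-07), a lineage in which NOTCH2 acts in differentiation. Over the list, 1 of 7 genes were higher and 2 lower than in conventional dendritic cells, 2 of 11 higher and 4 lower than in monocytes, and 7 of 21 higher and 4 lower than in pro-B and pre-B cells. Of all genes tested, 16.8%, 20.8% and 16.9% were higher and 19.4%, 21.6% and 18.3% lower in that order. Targets were scarce: Hes1 had 18 UMIs in all 404 barcodes, at 4.1 ± 3.9 CPM against 37.7 ± 20.6 in pro-B and pre-B cells (−3.28 ± 0.25, adjusted p = 1.35e-12), and Dtx1 had 0. Jag1 itself had 1 UMI, in the shared library. Between the stages, 3 of 9 tested Notch genes fell and 0 rose, beside 13.2% and 12.1% of all genes tested. Adam10, a protease that releases the receptor's outer part, fell from 134 ± 45.2 to 51.3 ± 21.8 CPM (−1.47 ± 0.27, adjusted p = 0.000238), with library B above the lowest E16.5 library. Notch2 fell from 48.3 ± 21 to 20.2 ± 7.02 CPM (−1.26 ± 0.33, adjusted p = 0.00541). Ncstn, a subunit of gamma-secretase, fell from 25.1 ± 10.9 to 8.34 ± 5 CPM (−1.65 ± 0.44, adjusted p = 0.00742), a call lost without library B (−1.36, adjusted p = 0.0531).

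The genotypes were compared at E16.5. The comparison of 2 Jag1Ndr/Ndr libraries (105 barcodes) with the 3 others (107 barcodes) called 0 of 5511 genes (0%) with edgeR. An unadjusted p under 0.05 was found for 117 genes, and DESeq2 gave 1 call (0.0181%), Elane. Elane encodes neutrophil elastase and was at 437 and 81.6 CPM in the homozygous libraries and at 6.66, 7.99 and 9.69 CPM in the others (edgeR adjusted p = 0.999). Neutrophil markers summed to 4316 to 5596 CPM in the homozygous libraries and 1197 to 6367 CPM in the others. Hepatocyte markers did not overlap, at 1809 to 1845 CPM in the homozygous libraries and 1021 to 1325 CPM in the others. With 2 against 3 libraries, even full separation gives an exact permutation p of 0.2. Of 11 hepatocyte markers tested, 4 had an unadjusted p under 0.05, against 2.12% of all genes, and 9 had a positive difference (median 0.43). Monocyte markers summed to 443 to 456 CPM in the homozygous libraries and 404 to 810 CPM in the others. Macrophage markers summed to 111 to 632 CPM and 98.1 to 437 CPM. The part of these classes was not tested. The smallest edgeR p-value belonged to Serpinb1a, an inhibitor of such proteases (2.11 ± 0.44, adjusted p = 0.336). Of 22 identity genes, 21 had a positive difference (median 0.30), against 49.4% of all genes (median −0.00). Bst2, Tcf4 and Irf8 all had a UMI in 25 of 26 and 72 of 79 homozygous barcodes, and in 32 of 34, 40 of 50 and 19 of 23 of the others. Jag1Ndr/+ replicate 1 had 22.1% globin UMIs in the gate, against 13.1% to 16.9% in the other E16.5 libraries, and the lowest Tcf4 and Irf8 at E16.5. The part of these differences in the identity genes was not tested. Of 12 erythroid markers 1 was positive (median −0.20), and of 24 cell cycle genes 4 were (median −0.14). An unadjusted p under 0.05 was found for 2 identity genes, against 2.12% of all genes. These were Bst2 (0.60 ± 0.24, adjusted p = 0.999) and Klk1 (1.04 ± 0.43, adjusted p = 0.999). None of 9 Notch genes had an unadjusted p under 0.05 (median 0.27), and Notch1 was at 121 and 120 CPM in the homozygous libraries against 93.2, 122 and 51.7. The share of gated barcodes was 0.22% ± 0.111 (SD, n = 2) against 0.167% ± 0.0823 (SD, n = 3), with overlapping values (exact permutation p = 0.6, where 0.2 is the smallest possible).

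Proliferation was compared at equal depth, in barcodes thinned to 2000 UMIs. Shallower ones were left out, all at P3: 26 of 30 plasmacytoid barcodes of library D were kept, 78 of 80 conventional ones there, 92 of 97 monocytes in B and 170 of 179 in D, and 3586 of 4345, 2667 of 3463 and 1245 of 2012 pro-B and pre-B cells in A, B and D. In the gate, 24 cell cycle genes took 0.734% to 0.887% of UMIs in the E16.5 libraries and 0.605% to 0.756% at P3. Conventional dendritic cells had 0.352% to 0.575% and 0.181% to 0.492%, monocytes 0.751% to 0.862% and 0.635% to 0.785%, and pro-B and pre-B cells 0.825% to 1.06% and 0.75% to 1.2%. The monocyte gate also held promyelocyte genes, with Elane at a mean of 1737 CPM and Mpo at 2197 CPM. The part of such cells in its cell cycle share was not tested. The plasmacytoid share lay above that of conventional dendritic cells in every library. The gene test gave 17 of 24 cycle genes higher and 0 lower than in conventional dendritic cells, 6 higher and 2 lower than in monocytes, and 0 higher and 13 lower than in pro-B and pre-B cells. Of all genes tested, 16.8%, 20.8% and 16.9% were higher and 19.4%, 21.6% and 18.3% lower in that order. Of the cycle genes higher than in monocytes, Top2a, Tubb5 and Ube2c turned negative after thinning (−0.42, −0.25 and −0.12). In that test the gates were applied again to the thinned counts, so its barcodes differ from those of the shares above. Top2a, the topoisomerase of dividing cells, was higher than in conventional dendritic cells (0.74 ± 0.11, adjusted p = 1.99e-05). Between the stages, where 12.1% of all genes tested rose and 13.2% fell, 3 of 24 cycle genes rose and 5 fell. Those that fell include the mitotic genes Ube2c (−1.18 ± 0.19, adjusted p = 5.15e-05) and Cdk1 (−1.29 ± 0.26, adjusted p = 0.000926), while the thymidine kinase gene Tk1 rose from 48.3 ± 6.96 to 117 ± 27.5 CPM (1.03 ± 0.23, adjusted p = 0.00156). After thinning, 12 plasmacytoid barcodes had 0 UMIs of the 24 genes, all of them at P3.

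**Figure D4:**
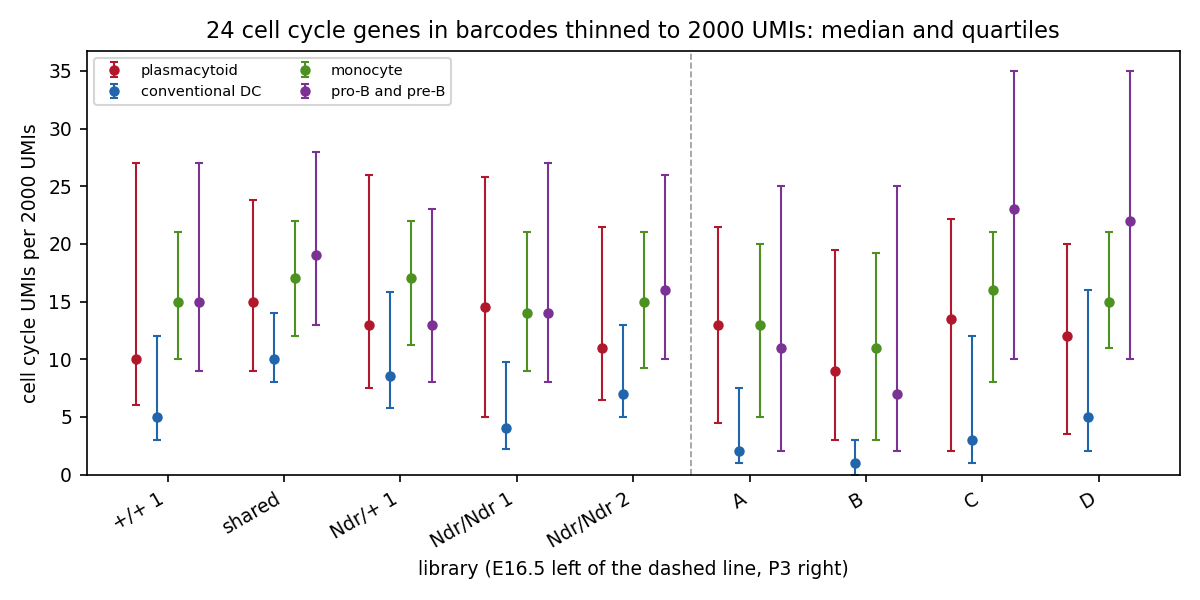
UMIs of 24 cell cycle genes per barcode thinned to 2000 UMIs (vertical axis) in 4 gates and 9 libraries; points are medians and bars the quartiles. The plasmacytoid medians run from 9 to 15 UMIs, and those of conventional dendritic cells from 1 to 10 UMIs.

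**Figure D5:**
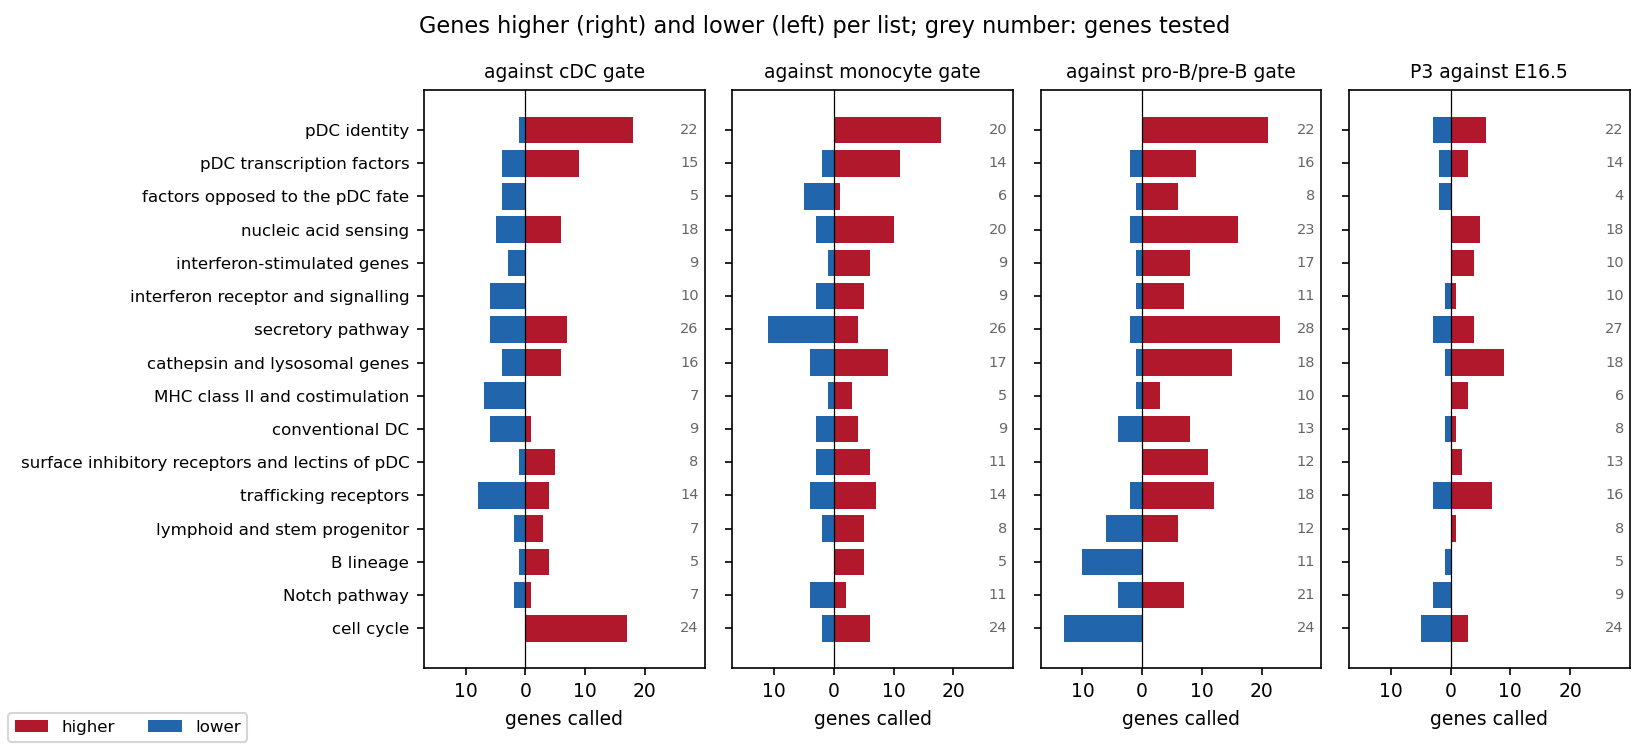
Numbers of genes called higher and lower in 16 gene lists and 4 comparisons (P3 against E16.5, and the plasmacytoid gate against the 3 other gates), with the number tested in grey. The identity list has 18, 18 and 21 genes higher against the other gates, and between the stages the lysosomal list has 9 higher and 1 lower.

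Finally, the stage difference in the gate was tested against that in the other gates, as an interaction in 1 model. Against conventional dendritic cells, 5 of 6119 genes (0.0817%) differed. There were 447 genes (7.31%) at an unadjusted p under 0.05 and 4 calls (0.0654%) by DESeq2. The 5 were Ctsb, Acaa2, Cd59a, Lpl and Mgst1, each with a positive interaction. Ctsb, a lysosomal cathepsin, rose from 679, 619, 423, 701 and 591 CPM to 830, 890, 1077 and 1270 CPM in the gate, while conventional dendritic cells went from 278 ± 66 to 214 ± 28.5 CPM (interaction 1.13 ± 0.18, adjusted p = 0.0054, and without library C 1.06, adjusted p = 0.0707). Without library C, 0 genes were called. The tests against monocytes and against pro-B and pre-B cells were added after the data had been seen. The first called 60 of 8122 genes (0.739%, with 0.382% positive and 0.357% negative), the second 514 of 11107 (4.63%, with 0.963% positive and 3.66% negative). With no library block the first called 1 gene, and after thinning it called 3 of 1956 genes tested. After thinning, the second called 32 positive and 26 negative of 7527 genes tested, with a median interaction over all genes of 0.26 in place of −0.10, so its balance of directions turned. At E16.5 the conventional dendritic cell gate held 11 to 27 barcodes per library. The monocyte gate held 154 to 417 and the pro-B and pre-B gate 1411 to 2257. The numbers of calls therefore do not show which gate was most alike in its stage difference. Against pro-B and pre-B cells, Ccr9 had a positive interaction (1.87 ± 0.37, adjusted p = 0.00041), and Irf8 and Spi1 had negative ones (−1.11 ± 0.11, adjusted p = 1.52e-12, and −1.57 ± 0.19, adjusted p = 5.18e-10). Over both stages, Ccr9 was at 201 ± 79.6 CPM in the plasmacytoid gate and 0.646 ± 0.48 CPM in pro-B and pre-B cells. Its interaction therefore rests on very low values in the latter, and no stage contrast is read from it. Irf8 went from 40.6 ± 9.63 to 162 ± 12.2 CPM in pro-B and pre-B cells, so that its log2 rise was smaller in the plasmacytoid gate, from a higher level. In CPM, the rise of Irf8 was larger in the plasmacytoid gate.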

How the data were processed

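Droplet-based single-cell RNA counts of mouse liver were used. The deposited values are UMI counts per gene and barcode, which the authors made with Cell Ranger 2.1.1 on build mm10, per the submitters' processing notes, which also name R 4.1.2 and Seurat. The file headers give software version 3.1.0 at E16.5 and 3.0.2 at P3.

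Barcodes under 1000 UMIs or above 15% mitochondrial UMIs were removed, the gates were applied to the counts, and the counts of each gate were summed per library, with at least 10 barcodes per sum. Matrices that shared barcodes were reduced to 9 libraries. The members and gene lists were chosen with earlier results of these data known. Sums were tested with edgeR 4.0.16 (quasi-likelihood, TMM, filterByExpr, Benjamini-Hochberg threshold 0.05) in R 4.3.3, with DESeq2 1.42.0 as an alternative. The interactions against monocytes and against pro-B and pre-B cells were added later. The procedure was tested on simulated data. Shares were compared with exact permutation tests over libraries (Python 3.11.15, numpy 2.4.6), and thinning drew 2000 UMIs per barcode without replacement. The gates were applied again to the thinned counts, except for the cell cycle shares, which kept the barcodes of the unthinned gates. Doublets were kept, and Scrublet (in scanpy 1.11.5), which marked 4.11% to 13.4% of barcodes, was used only as an alternative.

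Genes were named from the lists, by counts in each direction. Besides these, the rule took the 10 called genes with the largest positive and the 10 with the largest negative fold change per comparison. Their mean had to be at least 50 CPM, and mitochondrial, sex-linked and unnamed gene models and gate genes were left out. Between the stages, the libraries also had to be without overlap. Between the gates, every library had to differ in the same direction. The interactions had no such condition. Where under 5 genes were called, all were named. Some genes that the rule takes are not reported here. Cd59a, Lpl and Mgst1 lie outside this rule and were named after their values were seen.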

Additional observations from a re-analysis of the deposited data

Results flagged for a closer look

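In 8 of 52 groups of libraries tested for a value far from the rest, 1 library stood apart in an identity gene (chance gives about 1 in 20). At E16.5, Jag1Ndr/+ replicate 1, the library with the fewest gated barcodes, was apart for Atp1b1 (249 CPM), Lifr (32.3 CPM) and Ly6a (16.2 CPM). Jag1Ndr/Ndr replicate 1 was apart for Ly6d (2077 CPM) and Jag1Ndr/Ndr replicate 2 for Klk1 (51.5 CPM). At P3, library D was apart for Tcf4 (1310 CPM), library A for Pacsin1 (68.6 CPM) and library C for Spib (209 CPM).

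The stage difference in the plasmacytoid gate differed from that in another gate for the genes below, by the interaction test, and each value is the log2 interaction. Against conventional dendritic cells, the interactions of Acaa2 (2.00) and Ctsb (1.13) were positive. The call of Acaa2 was lost without Jag1Ndr/Ndr replicate 1 (adjusted p = 0.0709) or replicate 2 (0.0915) at E16.5, library B (0.0507) or library C (0.0904), and that of Ctsb without library C (0.0707).

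Against monocytes, positive interactions were those of Gda (3.18), Thbs1 (2.76), Pglyrp1 (2.70), Hp (2.15), Clec4a2 (1.51), Rpgrip1 (1.47), Atp2b4 (1.43), Ckap4 (1.29), Scd2 (1.22) and Cdk6 (1.21). Negative ones were those of Igkc (−3.66), Cd7 (−3.06), Nfe2 (−1.64), Lars2 (−1.62), Cdc42ep3 (−1.59), Smpdl3a (−1.52), Fosb (−1.45), Itgb7 (−1.33), Junb (−1.22) and Epsti1 (−1.15). Of these 20 calls, 6 held whichever 1 library was left out (Cd7, Ckap4, Gda, Igkc, Lars2 and Pglyrp1). The other 14 were each lost without at least 1 library (adjusted p from 0.0511 to 0.379), and each library but Jag1Ndr/Ndr replicate 1 at E16.5 ended at least 1 of them. Some rest on very low values in 1 gate. Over both stages, Cd7 was at 334 ± 157 CPM in the plasmacytoid gate and 3.44 ± 4.27 CPM in monocytes, and Igkc at 155 ± 114 and 10.5 ± 12.6 CPM. Gda was at 10.4 ± 12.1 and 189 ± 32.8 CPM, and Thbs1 at 6.06 ± 4.16 and 249 ± 215 CPM. Summed neutrophil markers in the gate were at 1197 to 6367 CPM at E16.5 and at 14823 to 40846 CPM at P3, and their part was not tested. The monocyte gate excluded barcodes with Ngp, a neutrophil gene, and the plasmacytoid gate did not, so the gates set part of such differences.

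Against pro-B and pre-B cells, positive interactions were those of Cyb561a3 (1.88), Ccr9 (1.87), Ptov1 (1.48), Tspan13 (1.48), Rpgrip1 (1.41), Fyn (1.38), Elovl6 (1.37), Cdk6 (1.37), Rcsd1 (1.36) and Rasgrp2 (1.33). Negative ones were those of Cd74 (−4.21), Rnase6 (−3.08), H2-Aa (−2.96), Cd7 (−2.80), H2-DMa (−2.57), Sorl1 (−2.47), Sp100 (−2.42), Klf2 (−2.29), Pou2f2 (−2.16) and Id2 (−2.14). Of these 20 calls, 16 held whichever 1 library was left out. The call of Cd74 was lost without Jag1Ndr/+ replicate 1 (adjusted p = 0.055) or Jag1Ndr/Ndr replicate 2 (0.0544) at E16.5, that of Cd7 without Jag1Ndr/Ndr replicate 1 at E16.5 (0.0668), that of Cyb561a3 without the shared library (0.0651), and that of Id2 without the shared library (0.0573) or Jag1Ndr/+ replicate 1 at E16.5 (0.0682). Cyb561a3 went from 2.53 ± 2.76 to 218 ± 66.4 CPM in the plasmacytoid gate (SD, n = 5 and 4) and rose from near 0 in the other gates too, which cannot be told apart from the change of gene list. Over both stages, Cd7 was at 334 ± 157 CPM in the plasmacytoid gate and 2.12 ± 2.53 CPM in pro-B and pre-B cells, and Ccr9 at 201 ± 79.6 and 0.646 ± 0.48 CPM. The interactions of both rest on very low values in pro-B and pre-B cells.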

How the results depend on the processing

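The gate held 212 barcodes at E16.5 and 192 at P3, and the part of these numbers in the calls was not tested. The stage difference in share was 0.0991 percentage points after thinning, 0.0249 without barcodes that carried markers of other classes (17 barcodes left, 0 of them at E16.5, so a P3 share against 0) and −0.462 per barcode with a Ptprc UMI, and 0.0505 to 0.111 with 1 library left out. The genotype difference in share ran from −0.0255 to 0.132 with 1 library left out, the first without Jag1Ndr/Ndr replicate 2, and was 0.593 per barcode with a Ptprc UMI. The genotype test called 1 gene with DESeq2, 2 without Scrublet doublets, 3 with no filter and 0 to 7 with 1 library left out. Replicate numbers do not establish a pairing (correlations of deviations 0.102 for genotype and 0.032 for stage), and with a replicate block 2 and 1345 genes were called. The stage count was 141 after thinning (of 605 genes tested) and 974 to 1381 with 1 library left out, and 45 of 80 named genes kept their call in all 17 alternatives without thinning, as did 0 of 2, 1 of 25 and 29 of 71 for the interactions with conventional dendritic cells, monocytes, and pro-B and pre-B cells.

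Against conventional dendritic cells, monocytes, and pro-B and pre-B cells, 1082, 1788 and 2158 genes were called with no replicate block (here, no library block) and 334, 521 and 1270 after thinning, and against conventional dendritic cells 2898 with no filter. The interaction counts were, against conventional dendritic cells, 8 at 3 Siglech UMIs, 20 without Scrublet doublets, 52 with no filter, 1 with no replicate block and 0 to 13 with 1 library left out. Against monocytes they were 39 at 3 Siglech UMIs, 118 with no filter, 1 with no replicate block, 3 after thinning and 30 to 77 with 1 library left out. Against pro-B and pre-B cells they were 304 with DESeq2, 213 with no replicate block and 58 after thinning.

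Thinning turned the direction of Unc93b1 (0.08) against conventional dendritic cells. Against monocytes it turned Calr (0.53), Dnajc3 (0.44), Hspa5 (0.77), Pdia3 (0.37), Pdia6 (0.54), Sec61b (0.36), Ssr2 (0.27), Top2a (−0.42), Tubb5 (−0.25) and Ube2c (−0.12). Against pro-B and pre-B cells it turned Ap3b1 (−0.03), Csf1r (−0.28), Dnajb9 (−0.06), Ikzf1 (−0.17) and Sel1l (−0.27), and Lgmn (−0.35) turned without barcodes carrying macrophage and similar markers, an alternative added after seeing the data. The interactions of Itga4 (0.05, monocytes) and of H2-DMb1 (0.22), Havcr1 (1.50), Id2 (0.02) and Ikzf1 (0.24, pro-B and pre-B cells) turned too. The causes were not tested. Leaving out barcodes with markers of any other class could not be run for the gene tests, nor could a gate on Cd209a and Clec10a alone, nor thinning for the interaction with conventional dendritic cells.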
